A study of Mus musculus with 16 samples.

Results

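KPC1199 is a mouse pancreatic ductal adenocarcinoma (PDAC) line derived from a tumor model with Pdx-cre and engineered alleles that include mutant Trp53, which all groups below share. Lentiviral CRISPR-Cas9 was used to make puromycin-selected cells with a guide against Sin3B (Sin3Bsg1, labelled as knockout) or a control guide (sgCtrL, labelled as wild type), and each was cultured with IFNγ (10 ng/ml, 24 hours) or without it. Each of these 4 groups was profiled by RNA-seq in 3 libraries, so that 12 of the 16 libraries of the series enter the comparison. The other 4 libraries come from a separate experiment on cells without treatment, with 2 libraries for each guide. The question was whether the difference between Sin3Bsg1 and sgCtrL changed with IFNγ. It is asked by 1 contrast, the IFNγ response of Sin3Bsg1 minus the IFNγ response of sgCtrL, called the interaction and given on the log2 scale.

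SIN3B is a scaffold protein without DNA-binding activity of its own that brings histone deacetylases to promoters. IFNγ binds its receptor on the cell surface, JAK kinases pass the signal on to transcription factors, and these raise the transcription of interferon-stimulated genes. Among these are GTPases that attack intracellular pathogens, the MHC class I molecules that present peptides to CD8+ T cells, the checkpoint ligand PD-L1 and the chemokines that attract T cells. In tumor cells the same response shapes how T cells recognize them.

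The guide is the designed sequence that separates the genotypes, and it is shown with the adjoining genomic bases of its PAM in capitals. Its 20 bases match chr8:73449982-73450001 on the plus strand of GRCm39, inside coding exon 1 of Sin3b.

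Sin3Bsg1 guide: tggctcccgctggggtcgttCGG

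Sin3b mRNA was measured first, since it checks the genotype labels. Without IFNγ its level was 93.2, 95.6 and 88.5 CPM (counts scaled to the library size with edgeR's TMM factors) in sgCtrL and 39.3, 38.6 and 39.4 CPM in Sin3Bsg1. With IFNγ it was 80.4, 84.3 and 83.9 CPM in sgCtrL and 33.6, 37.7 and 35.5 CPM in Sin3Bsg1. The groups did not overlap under either condition, and part of the transcript remained in Sin3Bsg1, where fewer cells with the transcript and less transcript per cell cannot be told apart in bulk RNA. The log2 difference was -1.24 (standard error 0.052) without IFNγ and -1.22 (standard error 0.052) with it, both past the threshold of 0.05 on the edgeR adjusted p (5.10e-10 and 5.22e-10). The interaction of Sin3b was 0.023, with a 95% interval from -0.13 to 0.18, so the loss of the transcript was of the same size with and without IFNγ within that interval.

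Total counts ran from 18128055 to 27056903 per library, and replicates varied by 6.78% (biological coefficient of variation). Replicate 1 of sgCtrL with IFNγ stood apart from its group. Its counts differed from those of the other 2 replicates by a mean chi-square of 23.2 and 19.5 per gene, where those 2 differed from each other by 4.12 and pairs in the other groups by 2.52 to 9.63. Summed markers of pancreatic duct and epithelium, the identity of the line, took 3216 to 4600 CPM with all 9 genes detected, whereas 6 of 12 leukocyte markers and 3 of 6 endothelial markers were at 0 in every library and their sums stayed at 4.42 to 7.06 and 0.710 to 1.73 CPM. The summed fibroblast markers, with 1 of 12 genes at 0 (Postn), went from 286 to 292 CPM in sgCtrL and 242 to 254 CPM in Sin3Bsg1 without IFNγ to 218 to 221 CPM and 193 to 206 CPM with it, and their part in the results below was not tested.

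Few genes showed an interaction. Of 14913 genes tested, 17 (0.114%) passed an edgeR adjusted p of 0.05, 12 with a positive sign (0.0805%) and 5 with a negative sign (0.0335%), and 10 of them changed by at least 1.5-fold. The split by sign also depended on the setting, with 9 positive of 16 when scaled by library totals only and 55 of 110 without a filter on low counts. At an unadjusted p under 0.05 the count was 810 genes (5.43%). The genotypes themselves differed for 2568 genes without IFNγ (17.2%), of which 1177 were higher in Sin3Bsg1 (7.89%) and 1391 lower (9.33%), and for 2464 genes with it (16.5%), 1286 higher (8.62%) and 1178 lower (7.90%). Which direction was the more frequent depended on the setting. Without IFNγ 1347 of 2592 calls were higher with library totals only and 1305 of 2461 after thinning to the smallest library, and with IFNγ 1229 of 2488 were higher with DESeq2 and 1168 of 2469 with at least 10 counts in every library. The median standard error of an interaction was 0.124 on the log2 scale over all genes tested, and 0.0976 over the 10503 genes with a mean of at least 5 CPM. Without replicate 1 of sgCtrL with IFNγ the count of interactions was 33, which held all 17 genes. Leaving out replicate 2 of Sin3Bsg1 without IFNγ or replicate 3 of sgCtrL without IFNγ left 1 gene, Iigp1. Over the 12 fits that left out 1 library the count ran from 1 to 33. Each of these fits has fewer libraries, and the part of this in the change was not tested.

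Each gene was put into 1 class. Converging genes passed the interaction test and had a smaller log2 difference between the genotypes with IFNγ than without, diverging genes a larger one, and reversing genes would have passed the interaction test and the genotype test in both conditions, with opposite signs. Additive genes passed the genotype test in both conditions with the same sign, did not pass the interaction test, and had a 95% interval of the interaction within 0.5 of 0 on the log2 scale (1.41-fold). There were 14 converging, 3 diverging and 0 reversing genes, and 1200 additive genes (8.05% of those tested). A further 2134 genes differed between the genotypes in at least 1 condition without meeting a rule, among them 2 that passed in both with opposite signs but did not pass the interaction test, and 11391 genes had no call. For 171 genes at least 1 group held 3 counts or fewer in each library, so that no ratio between the genotypes could be read there.

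**Figure D1:**
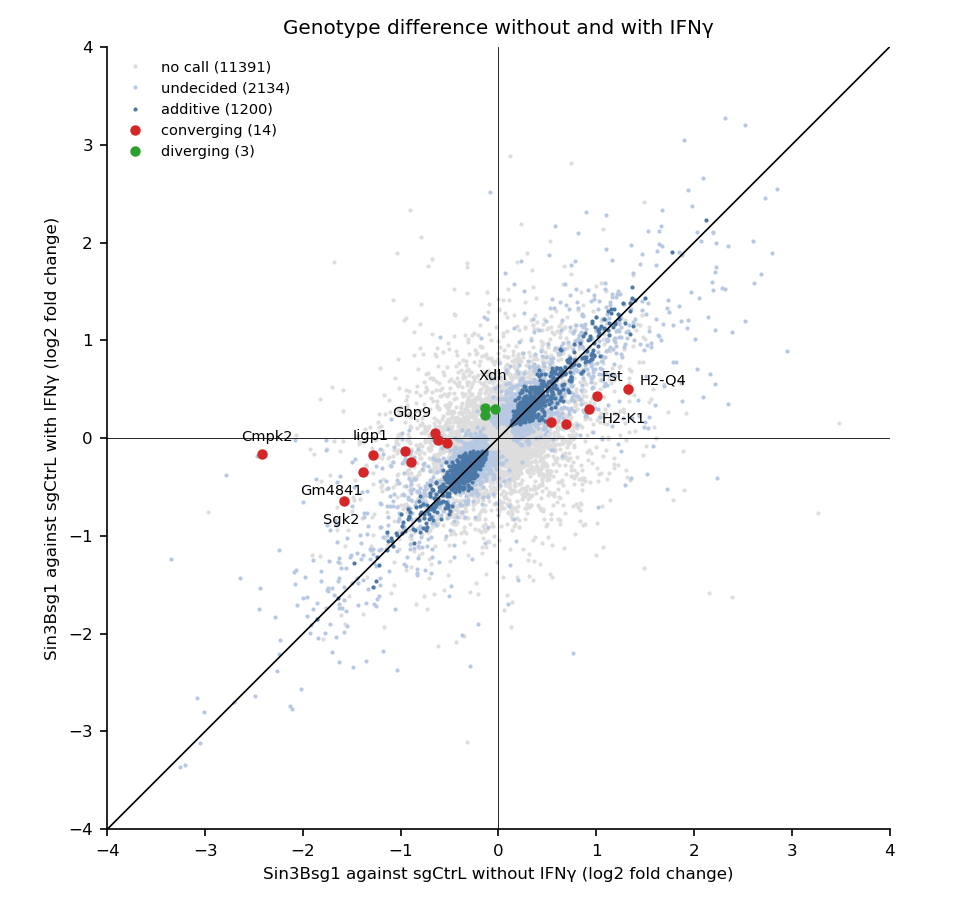
Log2 difference between Sin3Bsg1 and sgCtrL without IFNγ (horizontal) and with IFNγ (vertical) for each gene tested, leaving out the 171 genes without a readable ratio and 4 genes beyond the axes. On the diagonal the difference is the same in both conditions. The 1200 additive genes lie along it, the 14 converging genes lie between it and the horizontal line, except Tubb3 just past that line (0.05), and the 3 diverging genes stand above the horizontal line close to a difference of 0 without IFNγ.

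Genes that IFNγ raised held most of the interactions. IFNγ raised 504 genes at least 2-fold averaged over the genotypes (3.38% of those tested) and lowered 322 (2.16%). Among the 14 converging genes 12 were induced, and all 3 diverging genes were. At an unadjusted p under 0.05, 102 of the 504 induced genes (20.2%), 37 of the 322 repressed genes (11.5%) and 671 of the other 14087 genes (4.76%) had an interaction. No repressed gene passed the adjusted threshold, and 37 of them did so at the unadjusted p.

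**Figure D2:**
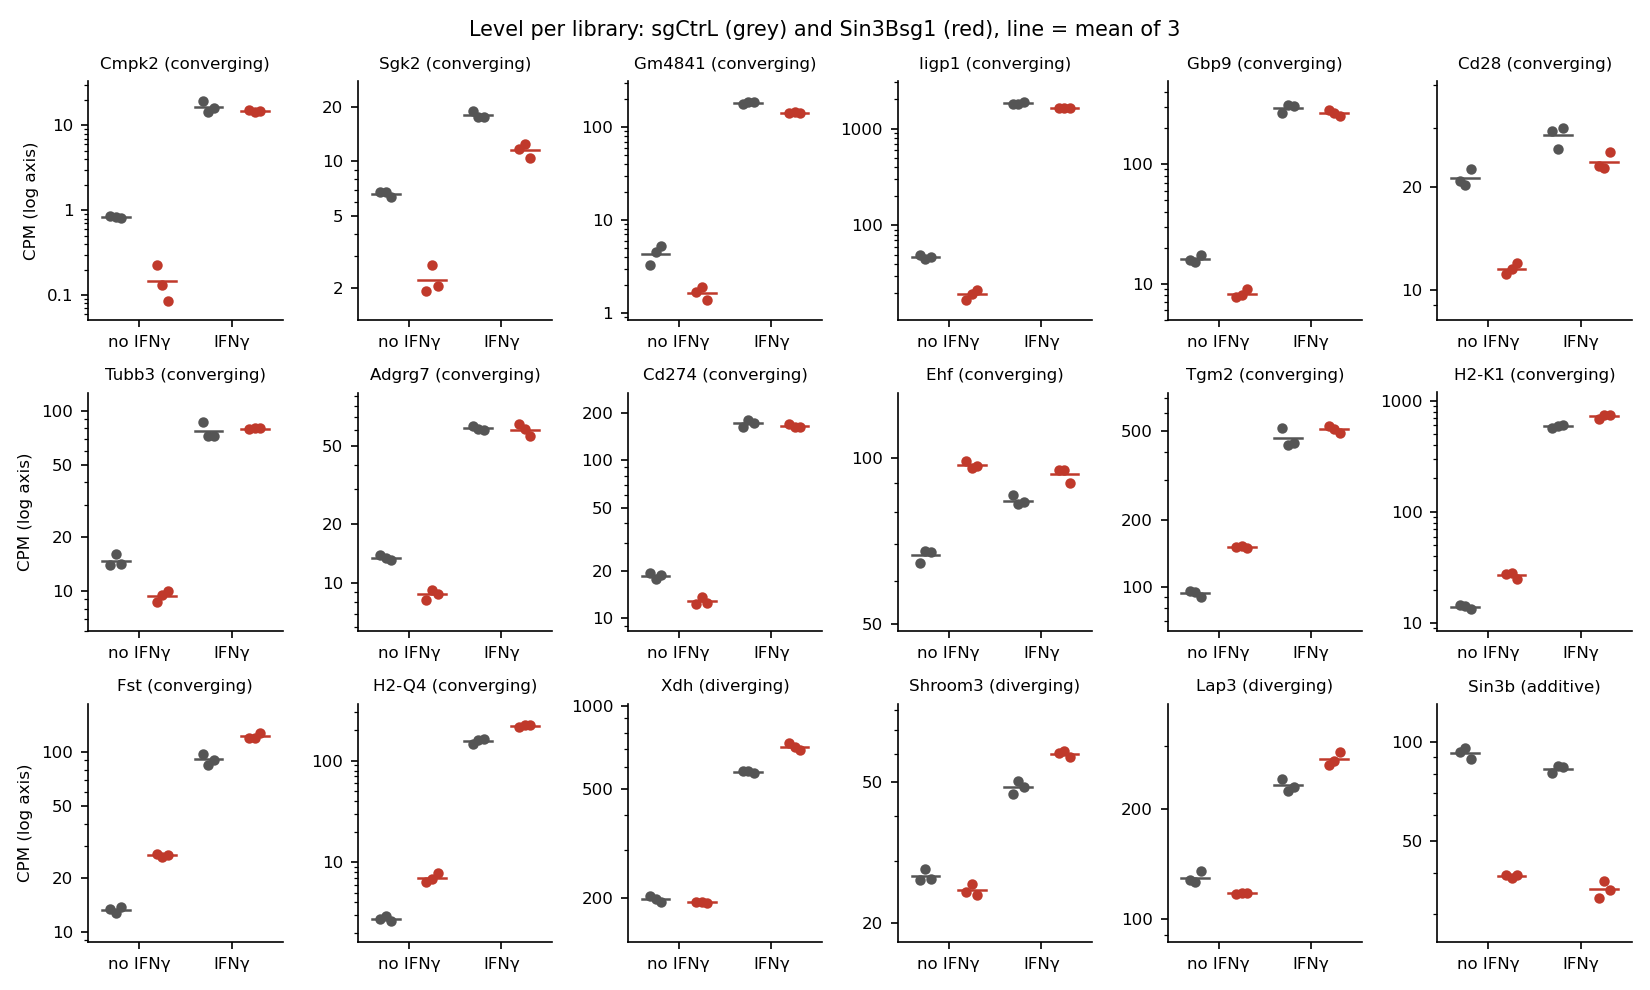
Level in CPM (log axis) of the 17 genes with an interaction and of Sin3b in each of the 12 libraries, sgCtrL in grey and Sin3Bsg1 in red, with a line at the mean of 3 libraries. Iigp1 went from 47.3 against 19.5 CPM without IFNγ to 1820 against 1621 CPM with it, whereas the gap of Sin3b kept its size.

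The 9 converging genes that were lower in Sin3Bsg1 without IFNγ included GTPases of cell-autonomous immunity. Iigp1 encodes an immunity-related GTPase (IRG) that disrupts the vacuoles of intracellular parasites. Its levels without IFNγ were 49.8, 45.1 and 47.2 CPM in sgCtrL and 17.2, 19.7 and 21.5 CPM in Sin3Bsg1. With IFNγ they were 1783, 1812 and 1865 CPM and 1630, 1615 and 1620 CPM. The groups did not overlap in either condition, but sgCtrL was 2.43-fold higher without IFNγ and 1.12-fold higher with it. The log2 difference of -1.28 (standard error 0.066) became -0.17 (standard error 0.056, edgeR adjusted p = 0.0540), an interaction of 1.12 (95% interval 0.93 to 1.3, edgeR adjusted p = 2.05e-05). Iigp1 passed in all 12 fits that left out 1 library.

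Gbp9 encodes a guanylate-binding protein (GBP), a family that coats pathogen vacuoles. Its levels without IFNγ were 15.8, 15.2 and 17.3 CPM in sgCtrL and 7.73, 8.05 and 9.07 CPM in Sin3Bsg1. With IFNγ they were 265, 312 and 304 CPM in sgCtrL and 284, 268 and 252 CPM in Sin3Bsg1. The groups were apart without IFNγ and overlapped with it. Its interaction was 0.82 (standard error 0.12, edgeR adjusted p = 0.0171), past the threshold in 7 of the 12 leave-one-out fits. Gbp9 (chr5:105224332-105287452, GRCm39) overlaps Gbp4 and Gbp8 in the annotation, and the GBP and IRG families hold near-identical members, so counting could have split reads between them.

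Cmpk2, a mitochondrial nucleotide kinase induced in antiviral responses, had the largest interaction among the 17 genes, 2.26 (95% interval 1.45 to 3.07, edgeR adjusted p = 0.0336), and few counts without IFNγ. There it was at 0.863, 0.835 and 0.802 CPM in sgCtrL and 0.228, 0.131 and 0.0860 CPM in Sin3Bsg1, from 6, 3 and 2 counts. Only the first of these counts kept Cmpk2 from the genes without a readable ratio, whose limit is 3. With IFNγ the values of 19.3, 14.3 and 15.9 CPM in sgCtrL and 15.1, 14.5 and 14.7 CPM in Sin3Bsg1 overlapped. It passed in 2 of the 12 leave-one-out fits.

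Cd274 (chr19:29344529-29365495, GRCm39) encodes PD-L1, the ligand that restrains T cells through PD-1. It was at 19.3, 17.7 and 18.8 CPM in sgCtrL and 12.3, 13.7 and 12.6 CPM in Sin3Bsg1 without IFNγ. With IFNγ it was at 162, 180.2 and 171 CPM in sgCtrL and 169, 162 and 163 CPM in Sin3Bsg1. Sin3Bsg1 was lower without IFNγ, with no overlap, and overlapped sgCtrL with it. The log2 difference went from -0.53 (standard error 0.067) to -0.05 (standard error 0.050), with an interaction of 0.47 (95% interval 0.29 to 0.65, edgeR adjusted p = 0.0454). Plgrkt overlaps Cd274 on the other strand, and without a stated strand setting their reads cannot be told apart. Cd274 lay just inside the threshold and passed in 2 of the 12 leave-one-out fits.

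The other converging genes lower in Sin3Bsg1 are not a single family. Sgk2, a serine/threonine kinase, kept a difference with IFNγ, from -1.58 to -0.64 on the log2 scale (edgeR adjusted p = 3.22e-04 with IFNγ), at 18.9, 17.5 and 17.5 CPM in sgCtrL and 11.7, 12.5 and 10.4 CPM in Sin3Bsg1. Cd28, known as the T-cell costimulatory receptor, was measured in these tumor cells at 20.9, 20.3 and 22.7 CPM in sgCtrL and 11.1, 11.5 and 12 CPM in Sin3Bsg1 without IFNγ. Its difference went from -0.89 to -0.25, and its IFNγ response averaged over the genotypes was 0.73, under the 2-fold limit for induced genes. The T-cell marker Cd3e was at 0 in every library. Tubb3, a beta-tubulin best known in neurons, went from 14, 16 and 14.1 CPM in sgCtrL and 8.72, 9.57 and 10.0 CPM in Sin3Bsg1 to 86.4, 72.5 and 72.4 CPM and 79.0, 80.1 and 79.6 CPM, which overlapped. It was the only converging gene whose fitted difference changed sign, from -0.65 to 0.05 (edgeR adjusted p = 0.716 with IFNγ). Adgrg7, an adhesion G protein-coupled receptor, went from -0.62 to -0.02, from 14, 13.5 and 13.1 CPM against 8.22, 9.31 and 8.86 CPM to 62.9, 60.9 and 60.3 CPM against 64.7, 60.7 and 55.8 CPM.

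Interactions of these 4 genes were 0.94 for Sgk2, 0.63 for Cd28, 0.69 for Tubb3 and 0.60 for Adgrg7, with edgeR adjusted p from 0.0308 to 0.0454. Each passed in only 1 or 2 of the 12 leave-one-out fits. The same sign in all 12 was part of the rule by which these genes were named, so it adds nothing here. Gm4841, named here after its values were seen, completes the group with 3.29, 4.51 and 5.24 CPM in sgCtrL and 1.68, 1.91 and 1.38 CPM in Sin3Bsg1 without IFNγ and with 177, 187 and 186 CPM and 141, 145 and 144 CPM with it. Its groups did not overlap in either condition, and its interaction was 1.04 (95% interval 0.67 to 1.41, edgeR adjusted p = 0.0308), past the threshold in 3 of the 12 leave-one-out fits.

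The 5 converging genes that were higher in Sin3Bsg1 without IFNγ began with MHC class I. H2-K1 (chr17:34214987-34219321, GRCm39), a classical heavy chain that presents peptides to CD8+ T cells, was at 14.5, 14.4 and 13.4 CPM in sgCtrL and 27.6, 28.0 and 25.0 CPM in Sin3Bsg1 without IFNγ. After IFNγ it stood at 565, 597 and 605 CPM in sgCtrL and 689, 744 and 746 CPM in Sin3Bsg1. Sin3Bsg1 was above sgCtrL in both conditions with no overlap, by 1.91-fold and then 1.23-fold. Its interaction of -0.63 (95% interval -0.81 to -0.46, edgeR adjusted p = 0.00931) passed in 10 of the 12 leave-one-out fits.

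H2-Q4, a nonclassical class I heavy chain, was at 2.75, 2.96 and 2.62 CPM in sgCtrL and 6.4, 6.87 and 7.74 CPM in Sin3Bsg1 without IFNγ. With IFNγ it was at 147, 159 and 163 CPM in sgCtrL and 214, 224 and 226 CPM in Sin3Bsg1. As for H2-K1, no groups overlapped, and the difference went from 1.32 to 0.50 on the log2 scale, both past the threshold. The interaction was -0.82 (standard error 0.12, edgeR adjusted p = 0.0201), past the threshold in 6 of the 12 leave-one-out fits. The heavy chains of this locus are near-identical over long stretches, and their values are uncertain where counting could have split reads.

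Fst encodes follistatin, a secreted antagonist of activin. Its 13.4, 12.7 and 13.7 CPM in sgCtrL and 26.9, 26.1 and 26.8 CPM in Sin3Bsg1 rose with IFNγ to 98.3, 84.4 and 91.0 CPM and to 120.5, 119.6 and 128 CPM. The groups were apart in both conditions, with an interaction of -0.58 (standard error 0.088, edgeR adjusted p = 0.0203) that passed in 4 of the 12 leave-one-out fits. Tgm2, a protein-crosslinking transglutaminase, and Ehf, an epithelial ETS factor, complete the class and were named after their values were seen. Tgm2 went from a mean of 93.3 ± 3.26 CPM against 151 ± 1.95 CPM (SD, n = 3) to 462 ± 45.3 CPM against 507 ± 17.1 CPM, with an interaction of -0.56, and its groups overlapped with IFNγ (Rprd1b lies across Tgm2 on the other strand). Ehf hardly responded to IFNγ (0.14 averaged over the genotypes), and its difference went from 0.54 to 0.16 as sgCtrL moved from 66.6 ± 1.82 to 83.8 ± 1.67 CPM (SD, n = 3) and Sin3Bsg1 from 97.2 ± 1.52 to 93.4 ± 2.88 CPM. Tgm2 passed in 5 and Ehf in 3 of the 12 leave-one-out fits.

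**Figure D3:**
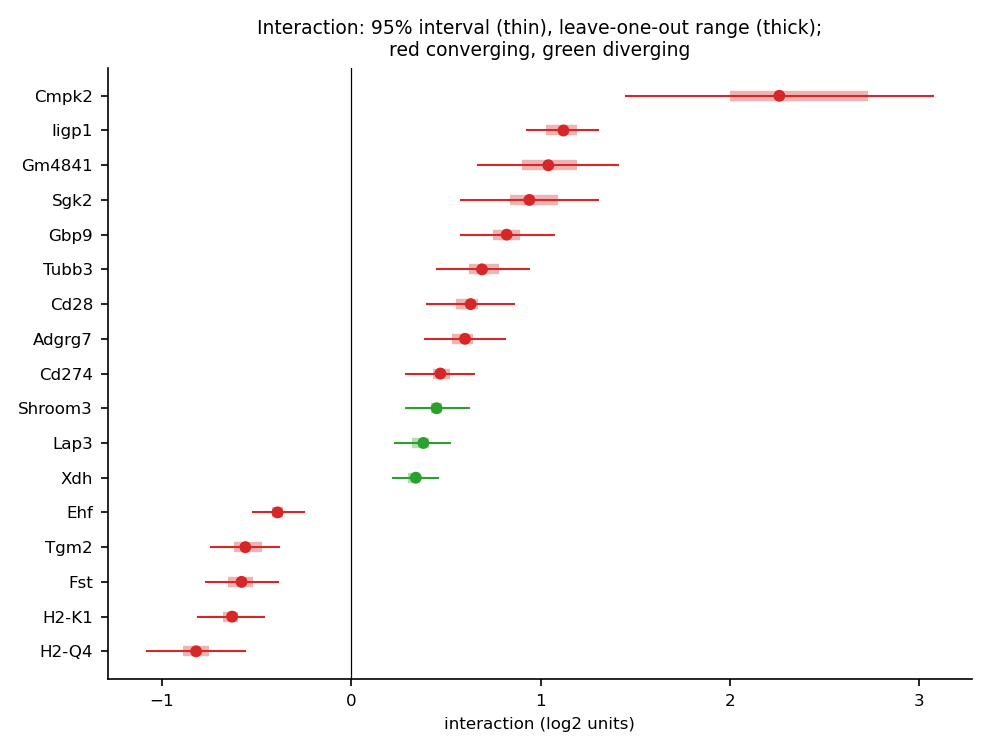
Interaction of the 17 genes on the log2 scale (points), with the 95% interval as a thin line and the range over the 12 leave-one-out fits as a thick bar, converging genes in red and diverging genes in green. No interval or range reaches 0. Cmpk2 has the widest interval, from 1.45 to 3.07, and Xdh one of the narrowest, from 0.22 to 0.46.

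Converging here refers to the ratio between the genotypes. In absolute CPM the mean gap was wider with IFNγ than without for 9 of the 14 converging genes. For Gbp9, Cmpk2 and Cd274 among them the change of the gap was no larger than about its standard error. The gap of H2-K1, Sin3Bsg1 minus sgCtrL, was 12.8 CPM (standard error 1.0) without IFNγ and 137 CPM (standard error 22.3) with it. The gap of Iigp1 was -27.9 CPM (standard error 1.86) and -198 CPM (standard error 24.5). Cd274 had a gap of -5.68 CPM (standard error 0.631) without IFNγ and -6.25 CPM (standard error 5.88) with it, a gap of nearly equal size at a level that IFNγ had raised in both genotypes. For Ehf, Cd28, Adgrg7, Tubb3 and Tgm2 the mean gap in CPM was smaller with IFNγ too. The change of the gap was -20.9 CPM (standard error 2.36) for Ehf and 5.16 CPM (standard error 1.66) for Cd28. It was less certain for Adgrg7 (3.76, standard error 2.74), Tubb3 (7.73, standard error 4.70) and Tgm2 (-12.2, standard error 28.0).

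In the 12 libraries the 3 diverging genes were close between the genotypes without IFNγ and higher in Sin3Bsg1 with it. Xdh, the xanthine oxidoreductase of purine breakdown, was at 203, 199 and 194 CPM in sgCtrL and 194, 194 and 192 CPM in Sin3Bsg1 without IFNγ, where the values touched. IFNγ brought it to 582, 578 and 569 CPM in sgCtrL and 734, 709.6 and 692 CPM in Sin3Bsg1, with no overlap. The log2 difference went from -0.04 to 0.30 (standard error 0.039), an interaction of 0.34 (95% interval 0.22 to 0.46, edgeR adjusted p = 0.0308).

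Shroom3, an actin-binding regulator of epithelial cell shape, went from 26.5, 28.4 and 26.7 CPM against 24.4, 25.8 and 24.0 CPM to 46.2, 50.5 and 48.5 CPM against 60.5, 61.2 and 58.9 CPM. Lap3, a cytosolic leucine aminopeptidase that trims peptides, went from 128, 126 and 135 CPM against 117, 118 and 118 CPM to 243, 225 and 231 CPM against 265, 272 and 288 CPM. In both genes Sin3Bsg1 was the lower group without IFNγ and the higher group with it, with no overlap, but the differences without IFNγ (-0.14 each) did not pass the threshold (edgeR adjusted p = 0.116 and 0.0676), so neither was classed as reversing. Their interactions were 0.45 and 0.38 (edgeR adjusted p = 0.0341 and 0.0458). Lap3 and Xdh passed in 1 of the 12 leave-one-out fits and Shroom3 in 2. Without IFNγ all 14 converging genes and 2 of the 3 diverging genes had groups that did not overlap, which held for 39.2% of all genes tested. With IFNγ this was so for 8 of the 14 converging genes and all 3 diverging genes, against 30.4% of all genes tested. All converging genes had passed the genotype test without IFNγ and all diverging genes with it, so groups apart there largely follow from the class. Of the 1200 additive genes, which passed in both conditions, 1196 had groups apart without IFNγ and 1189 with it.

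The threshold fell between Lap3 and Tap1. Just inside were Cd274 (0.47) and Lap3 (0.38). Just outside were Tap1 at -0.80 (edgeR adjusted p = 0.0556), Ly6c1 at 0.34 (0.0595), Mrc1 at 0.40 (0.0595) and Il1rn at -0.48 (0.0651).

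Upstream sequence was compared for the interaction genes, since most of them respond to IFNγ. Of the 17 genes 8 matched the RefSeq promoter table (GRCm38.p6, 250 bases before to 50 after each start). Each window was searched on both strands for the gamma-activated site GAS as TTCNNNGAA and for the interferon response element ISRE as GAAA, any 2 bases and GAAA, which may overlap. GAS stood in 8.3% and ISRE in 3.44% of all 32851 promoters. Among the 8 genes only Adgrg7 held either, with both overlapping at 23 bases before its start, and a window without these letters says no more than that. Its promoter is shown with both matches in capitals, from the minus strand of chr16:56795809-56796108.

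Adgrg7 promoter: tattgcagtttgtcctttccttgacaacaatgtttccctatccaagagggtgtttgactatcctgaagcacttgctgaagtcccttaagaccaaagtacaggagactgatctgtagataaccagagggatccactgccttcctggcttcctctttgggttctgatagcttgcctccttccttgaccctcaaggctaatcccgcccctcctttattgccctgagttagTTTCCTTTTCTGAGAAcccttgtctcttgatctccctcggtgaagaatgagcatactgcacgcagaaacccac

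The additive class was the common one among genes that differed between the genotypes in both conditions. Its 1200 genes had a median absolute difference of 0.33 without IFNγ and 0.32 with it on the log2 scale, and a median absolute interaction of 0.058. Sin3Bsg1 was higher for 553 and lower for 647 of them. IFNγ induced 26 and repressed 21. By its rule the class holds no large interaction, so these values describe it and test nothing.

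Among the additive genes lower in Sin3Bsg1, Fstl1, a secreted follistatin-like glycoprotein, differed most on average. It was at 64.8, 64.3 and 64.9 CPM in sgCtrL and 16.9, 20.3 and 16.2 CPM in Sin3Bsg1 without IFNγ. With IFNγ it was at 185, 173 and 179 CPM in sgCtrL and 49.0, 49.1 and 50.5 CPM in Sin3Bsg1. IFNγ raised it in both genotypes while the log2 difference was -1.86 (standard error 0.067) without IFNγ and -1.85 (standard error 0.061) with it, with a 95% interval of the interaction from -0.18 to 0.20. The next lower genes were Ror2, a Wnt5a receptor (-1.48 and -1.28), Fetub, a secreted protease inhibitor (-1.28 and -1.52), Etfbkmt, a mitochondrial lysine methyltransferase (-1.25 and -1.46), and Btbd11 (-1.22 and -1.3). The 95% intervals of the interaction of Fetub (-0.47 to -0.0083) and Etfbkmt (-0.41 to -0.0042) left out 0. Additive therefore means an interaction within the limit, not an absent one.

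Among the additive genes higher in Sin3Bsg1, Pik3ap1, an adaptor of PI3K signaling, was at 8.95, 9.31 and 7.22 CPM in sgCtrL and 39.4, 35.8 and 36.3 CPM in Sin3Bsg1 without IFNγ. With IFNγ the levels were 11.1, 7.89 and 9.55 CPM and 46.6, 44.6 and 41.6 CPM. Its difference was 2.12 and then 2.23 on the log2 scale. Clu, the secreted chaperone clusterin, went from 306 ± 7.32 CPM against 1041 ± 38.9 CPM to 168 ± 17.4 CPM against 629.6 ± 10.3 CPM (SD, n = 3 in each group), lower with IFNγ in both genotypes while the difference was 1.77 and 1.90. Tjp3, a tight junction protein (1.5 and 1.43), Unc13b, a vesicle priming factor (1.40 and 1.41), and Col1a1, a chain of type I collagen (1.37 and 1.54), followed. Col1a1 was lower in Sin3Bsg1 in the separate untreated experiment, with a log2 difference of -1.62, so its sign differs between the experiments.

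Families of interferon-stimulated genes were then read in turn, each from a list of members. All 10 GBPs tested were induced. At an unadjusted p under 0.05 their interaction passed for 7 of 10 (70.0%), where all genes tested gave 5.43% and induced genes 20.2%. Of the 7, 4 were positive and 3 negative, and 1 (Gbp9) passed the adjusted threshold. The signs were mixed, and 1 of the 7, Gbp8, had no readable ratio. Gbp2 was at 7.50, 6.64 and 7.27 CPM in sgCtrL and 10.9, 12.5 and 10.3 CPM in Sin3Bsg1 without IFNγ, and at 3530, 2993 and 2978 CPM and 3678, 3596 and 3737 CPM with it. Its difference went from 0.66 to 0.21, an interaction of -0.44 that did not pass (edgeR adjusted p = 0.381). Gbp6 went the other way, from 4.04, 6.47 and 4.87 CPM against 3.46, 3.78 and 4.69 CPM to 969.7, 969.8 and 951 CPM against 1083, 1073 and 1082 CPM, an interaction of 0.56 (edgeR adjusted p = 0.494). Over the 8 GBPs with a readable ratio the median interaction was 0.037.

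Among IRGs 14 were tested, all induced, and 4 had an unadjusted p under 0.05 by edgeR (28.6%). This share was 5.43% over all genes tested and 20.2% over induced genes. Of the 4, Iigp1 passed the adjusted threshold. The median difference over members with a readable ratio was -0.15 without IFNγ and 8.2e-04 with it. Igtp, a regulatory IRG, went from 3.40, 3.26 and 4.06 CPM against 2.28, 2.87 and 2.75 CPM to 1259, 1218 and 1189 CPM against 1168, 1249 and 1251 CPM, an interaction of 0.44 (edgeR adjusted p = 0.498). Irgm1 was the opposite case, with 27.1, 27.9 and 26.1 CPM in Sin3Bsg1 above 23.7, 22 and 21.3 CPM in sgCtrL without IFNγ and an overlap with it.

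On the list of MHC class I heavy chains, B2m and Nlrc5, 14 genes were tested. Sin3Bsg1 was higher for 4 and lower for 1 without IFNγ, and higher for 5 and lower for 1 with it. Over all genes tested 7.89% were higher and 9.33% lower without IFNγ, and 8.62% and 7.90% with it. Besides H2-K1 and H2-Q4 there were 2 additive members. H2-D1, the other classical heavy chain here, was at 65.7, 71.6 and 68.4 CPM in sgCtrL and 99.4, 95.5 and 92.3 CPM in Sin3Bsg1, and with IFNγ at 941, 929 and 944 CPM and 993, 1084 and 1090 CPM. It met the additive rule at the edge, with an interaction of -0.31 (95% interval -0.46 to -0.16, edgeR adjusted p = 0.200). H2-T23, the mouse Qa-1 chain, was well inside, from 0.56 to 0.45 with an interval from -0.30 to 0.10. B2m, the light chain they share, differed in neither condition past the threshold (-0.05 and 0.08). Nlrc5, the transactivator of class I genes, had 2.32, 1.67 and 1.87 CPM in sgCtrL and 1.07, 1.17 and 0.817 CPM in Sin3Bsg1 without IFNγ and overlapped with it, with an interaction of 1.0 (edgeR adjusted p = 0.556), opposite in sign to that of H2-K1.

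Genes of the immunoproteasome and peptide loading were higher in Sin3Bsg1 for 5 of 14 without IFNγ and 3 of 14 with it, where 7.89% and 8.62% of all genes tested were, and lower for 0. Of the 14, 0 passed the adjusted threshold by edgeR and 3 had an unadjusted p under 0.05, all negative. The share of 21.4% stands against 5.43% of all genes tested and 20.2% of induced genes. The 3 were Psmb9 (-1.43), Tap1 and Tap2. Tap1, a subunit of the peptide transporter, was at 2.37, 2.09 and 1.98 CPM in sgCtrL and 3.31, 4.13 and 4.04 CPM in Sin3Bsg1 without IFNγ. After IFNγ it stood at 435, 372 and 397 CPM in sgCtrL and 412, 415 and 404 CPM in Sin3Bsg1, where the groups overlapped. Tap2 kept part of its difference, from 0.70 to 0.31, with an interaction of -0.39 (edgeR adjusted p = 0.203). Calr, Canx and Pdia3, the general chaperones of class I folding, had interactions between -0.04 and 0.05.

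**Figure D4:**
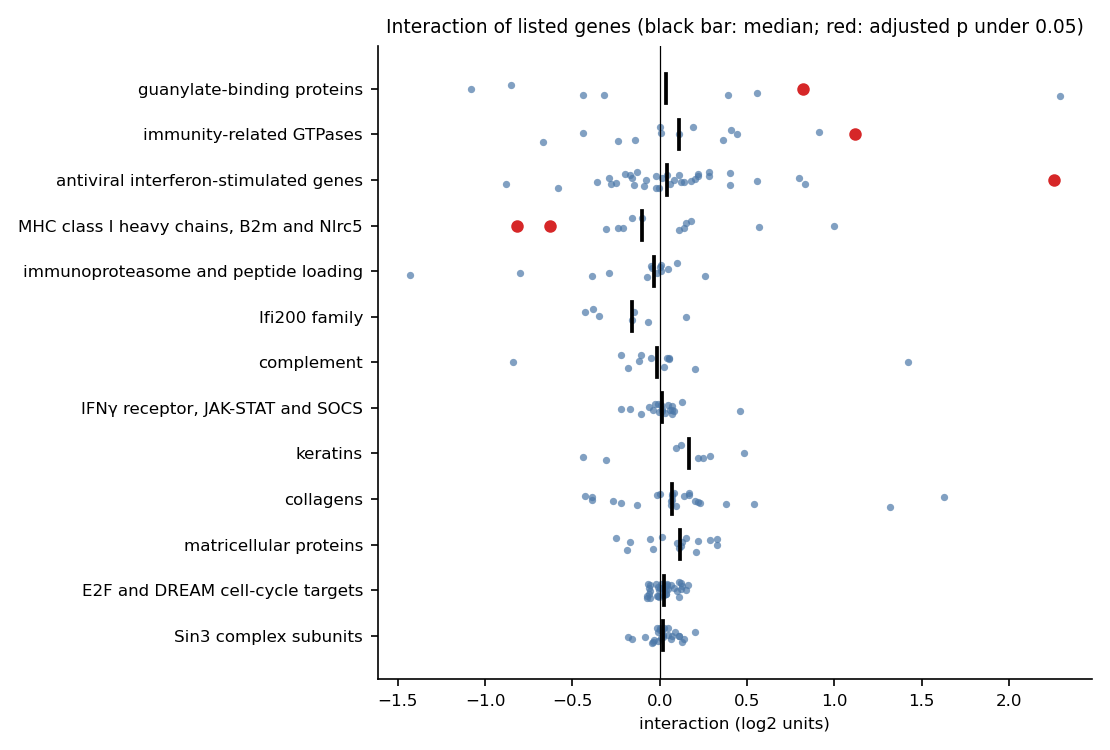
Interaction on the log2 scale of the members of 13 lists with a readable ratio, 1 point a gene, with a black bar at the list's median and genes past an edgeR adjusted p of 0.05 in red. GBPs spread widely to both sides of 0, whereas E2F and DREAM cell-cycle targets stay between -0.074 and 0.16.

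Some of the most studied IFNγ targets had no readable interaction. Of 7 MHC class II genes tested 6 had 3 counts or fewer in every library of a group, and so had Cxcl9, Cxcl10 and Cxcl11. Cxcl9, a CXCR3 ligand that attracts T cells, was at 0 in all 6 libraries without IFNγ, where a count of 0 allows up to 0.118 to 0.165 CPM by library, and at 33.5, 35.3 and 30.7 CPM in sgCtrL and 61.4, 65.6 and 63.1 CPM in Sin3Bsg1 with it. Ciita, the master regulator of class II genes, was at 0 to 0.216 CPM in the 6 libraries without IFNγ, then at 5.02, 6.12 and 6.04 CPM in sgCtrL and 13.2, 13.7 and 11.1 CPM in Sin3Bsg1. Cd74, the invariant chain, was at 3.48, 3.06 and 3.15 CPM and at 10.9, 12 and 10.4 CPM with IFNγ. Cxcl9, Ciita and Cd74 stood apart between the genotypes with IFNγ, but at this depth no difference could be measured without it, so they could not be called diverging. Cxcl11, another CXCR3 ligand, overlapped with IFNγ, at 0.547, 1.59 and 0.991 CPM in sgCtrL and 1.21, 1.13 and 1.03 CPM in Sin3Bsg1. Of the 171 genes of this kind 88 were induced, where 3.38% of all genes tested were. With IFNγ 53 of them differed between the genotypes (16.5% over all genes tested), 34 higher (8.62%) and 19 lower (7.90%). Genes with a group this low entered the test only through their other groups, so these counts describe the filter and test nothing. H2-DMa was the class II gene with a readable ratio, at 1.83, 1.5 and 1.23 CPM against 1.98, 1.70 and 2.19 CPM without IFNγ and 2.29, 2.95 and 2.12 CPM against 4.55, 5.13 and 6.01 CPM with it. Its interaction of 0.72 (95% interval 0.08 to 1.36) did not pass (edgeR adjusted p = 0.888).

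Additive differences also occurred within the immune response. Cx3cl1, a membrane-bound chemokine, was at 14.1, 13.6 and 14.1 CPM in sgCtrL and 20.6, 21.1 and 19.6 CPM in Sin3Bsg1, and with IFNγ at 47.9, 43.8 and 43.3 CPM and 66.7, 67.8 and 64.2 CPM. The difference was 0.55 and 0.56, with a 95% interval of the interaction from -0.18 to 0.19. Of 12 complement genes 4 were additive, against 8.05% of all genes tested, and all 4 were higher in Sin3Bsg1 (C1ra, C1s1, C3 and Cfb). Cfb, complement factor B, rose from 24.7, 27.0 and 27.5 CPM to 73.9, 66.2 and 64.2 CPM in sgCtrL and from 68.2, 69.8 and 67.6 CPM to 152, 149 and 153 CPM in Sin3Bsg1, with differences of 1.38 and 1.15. Its interaction was -0.22 (edgeR unadjusted p = 0.0137).

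Of 21 genes of the IFNγ receptor, JAK-STAT and SOCS list 0 passed the interaction test by edgeR. An unadjusted p under 0.05 was found for 3 (14.3%, against 5.43% of all genes tested), Jak2 and Stat3 among them. Sin3Bsg1 was higher for 2 and lower for 4 of the 21 without IFNγ (7.89% and 9.33% over all genes tested), and higher for 1 and lower for 3 with it (8.62% and 7.90%). Irf1, a transcription factor of the response, differed by 0.01 without IFNγ and 0.06 with it. None of the 8 genes of the IRF list passed by edgeR at the unadjusted p either.

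Lists outside the interferon response were read the same way. Keratins had 5 of 8 genes with an unadjusted p under 0.05, 4 of them positive (62.5%, against 5.43% of all genes tested), and 0 past the adjusted threshold by edgeR. Krt8 was at 1328, 1312 and 1284 CPM in sgCtrL and 1350, 1366 and 1321 CPM in Sin3Bsg1 without IFNγ, and at 1559, 1283 and 1360 CPM and 1738, 1718 and 1848 CPM with it, an interaction of 0.29 (edgeR adjusted p = 0.431). Krt20 was additive, at 1.0 and 1.24. Matricellular proteins held 7 additive genes of 16 and collagens 6 of 25, with differences of either sign, where 8.05% of all genes tested were additive. Among E2F and DREAM cell-cycle targets, a set that SIN3B complexes are known to repress, 1 of 37 genes had an unadjusted p under 0.05. This was 2.70%, against 5.43% of all genes tested, and the interactions of the 37 ran from -0.074 to 0.16. Of the 26 Sin3 complex subunits tested 0 had one by edgeR at either p.

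The separate untreated experiment gave an independent measure of the difference without IFNγ. Of the 14 converging genes 13 were measured there, and 12 (92.3%) had the same sign as without IFNγ, 11 of them past the threshold. All genes measured in both experiments passed that threshold in 32.2% of cases. The converging genes had all passed the genotype test without IFNγ, so a difference there was a condition of the class. Of 1190 additive genes measured, which passed that test too, 992 (83.4%) had the same sign, 761 of them past the threshold. Among all 13848 genes measured in both, 63.1% had the same sign, and among those past the threshold without IFNγ 79.5% did. Iigp1 was at 46.3 and 49.1 CPM in sgCtrL and 19.0 and 22.5 CPM in Sin3Bsg1, with a log2 difference of -1.20. Gbp9 (-1.27), Cd274 (-0.55) and H2-K1 (0.57) had the signs given above. A shared sign leaves the size open, and the class rests on size. Sgk2 (-0.51) and Fst (0.26, edgeR adjusted p = 0.115) differed less there than with IFNγ in the 12 libraries (-0.64 and 0.43). Adgrg7 had the other sign (0.29, edgeR adjusted p = 0.142), and Cmpk2 was not tested there. The 3 diverging genes had the same sign in both experiments, but Xdh differed in size. In the untreated experiment it was at 147 and 151 CPM in sgCtrL and 116 and 117 CPM in Sin3Bsg1. That log2 difference of -0.36 passed, whereas the 12 libraries gave -0.04 without IFNγ. The closeness of Xdh between the genotypes without IFNγ therefore holds for the 12 libraries alone.

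That experiment also let genes be chosen without using their genotype difference in the 12 libraries. Genes that IFNγ induced in the 12 libraries were taken where they differed in the untreated experiment by an edgeR adjusted p under 0.05 and at least 1.5-fold. The 21 such genes lower in Sin3Bsg1 had a median difference of -0.48 without IFNγ and -0.17 with it, and for 18 of 21 (85.7%) the fitted interaction was positive, against the direction by which they were chosen. The 34 higher in Sin3Bsg1 had medians of 0.47 and 0.48, and for 14 of 34 (41.2%) the fitted interaction was negative, against their direction. Among genes that were neither induced nor repressed the medians were -0.32 and -0.31 for 401 lower genes, of which 57.4% had a positive fitted interaction, and 0.51 and 0.49 for 470 higher genes, of which 47.9% had a negative one. Besides Iigp1, Gbp9 and Gm4841, the lower group held Nod1, an intracellular sensor of bacterial peptidoglycan, with differences of -0.67 and then -0.02, and Fstl1, with a fitted interaction of 0.0099. In the higher group H2-Q4 and Tgm2 passed as converging, while Icam1, an adhesion ligand for leukocytes, was at 1.51 and 1.27. Whether the lower and higher groups differ was not tested.

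**Figure D5:**
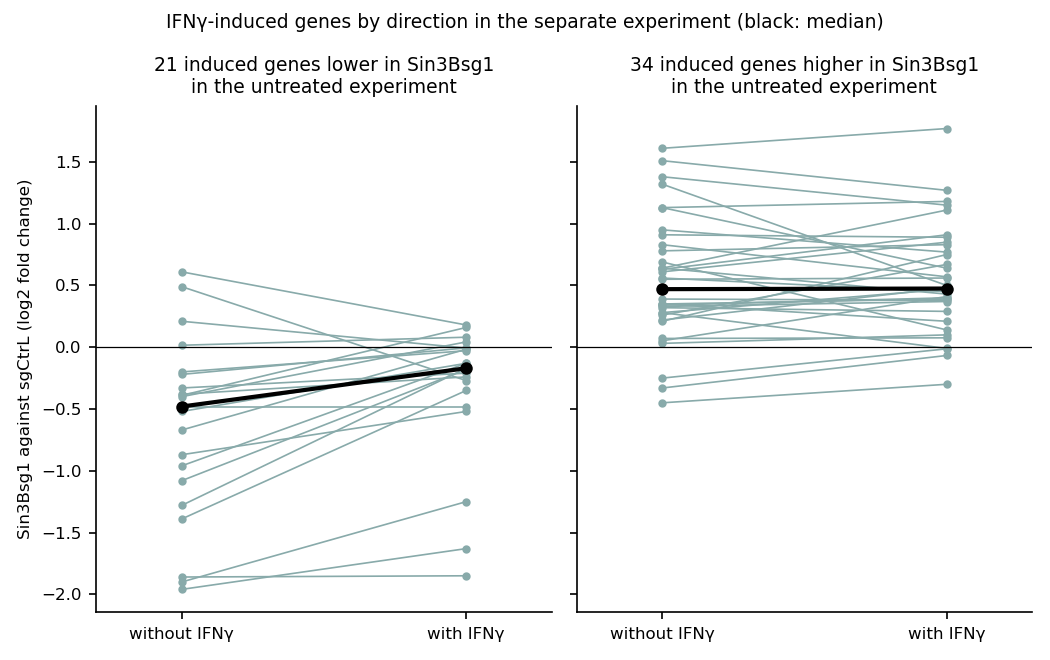
Log2 difference between Sin3Bsg1 and sgCtrL without and with IFNγ for IFNγ-induced genes chosen in the separate untreated experiment, 21 lower in Sin3Bsg1 there (left) and 34 higher (right), 1 line a gene and the median in black. The median of the lower genes goes from -0.48 to -0.17, and that of the higher genes from 0.47 to 0.48.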

How the data were processed

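RNA of KPC1199 cells was sequenced in 12 libraries, 3 for each combination of guide and IFNγ. Values as deposited are estimated counts of each gene, not normalized, in a table for these libraries and another for the separate untreated experiment. The submitters' processing notes name fastp, HISAT2, StringTie and mm39, whereas the paper names mm9 and featureCounts, and which applies could not be settled. Versions and strand setting are not given in the sources used here. Control columns carry a lacZ guide's name and were taken as sgCtrL, the only other guide of each table. Of the values of the IFNγ experiment 9.44% were not whole, and all were rounded. From the untreated experiment, 324 features without an Ensembl gene (0.615 to 0.677% of a library's counts) were left out. Columns of group means (4 and 2) were not used.

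Counts were fitted with edgeR 4.0.16 in R 4.3.3 (TMM factors 0.957 to 1.04, filterByExpr, a mean per group over 12 libraries, glmQLFTest, two-sided, Benjamini-Hochberg over 14913 genes, threshold 0.05). Standard errors are the log2 change divided by the square root of F. The untreated libraries were fitted apart. The code was tested on simulated data. Nothing in the labels states separate cultures, so p-values measure the spread between these libraries, which may be technical. Intervals and floors cover counting error or this spread only.

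Members and lists were chosen with earlier results of these data known. Named genes were Iigp1, Cd274, H2-K1, Sin3b, the 10 largest interactions of each class and the 5 higher and 5 lower additive genes with the largest mean difference (mean of at least 5 CPM, a symbol, the same sign in all 12 leave-one-out fits), list members past the threshold, and up to 3 others of a list. Alternatives were DESeq2 1.42.0, RLE or library-total scaling, other filters, thinning, leaving out each library, a replicate block, robust dispersion, other limits for the additive class, and differences in CPM. Gene positions come from GENCODE on GRCm39. Some items withheld for evaluation are not reported here.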

Additional observations from a re-analysis of the deposited data

Results flagged for a closer look

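The genotype difference changed with IFNγ, by the edgeR test of the interaction itself, for 17 genes, and their interactions on the log2 scale were 1.12 for Iigp1, -0.63 for H2-K1, 0.82 for Gbp9, -0.82 for H2-Q4, -0.58 for Fst, -0.56 for Tgm2, 0.60 for Adgrg7, -0.39 for Ehf, 0.34 for Xdh, 0.69 for Tubb3, 1.04 for Gm4841, 2.26 for Cmpk2, 0.45 for Shroom3, 0.63 for Cd28, 0.47 for Cd274, 0.94 for Sgk2 and 0.38 for Lap3. Every group had 3 libraries, too few for a test of single libraries as outliers. Iigp1 was past the threshold in all 12 fits that left out 1 library and H2-K1 in 10, whereas Xdh, Tubb3, Cd28, Sgk2 and Lap3 were past it in 1.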

How the results depend on the processing

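The 17 genes kept the sign of their log2 interaction under every other fit in which they were tested, and the number past the threshold was 32 with DESeq2, 110 without a filter on low counts (27904 genes tested), 10 with a limit of 1.5-fold and 810 at an unadjusted p. DESeq2 and the unfiltered fit called all 17. Leaving out 1 library gave 1 to 33 calls, 1 to 18 converging, 0 to 11 diverging and 0 to 4 reversing genes, and the highest counts came without replicate 1 of sgCtrL with IFNγ. Converging genes numbered 25 with DESeq2, 47 without a filter and 9 after thinning to the smallest library. Diverging genes numbered 5 with DESeq2, 32 without a filter and 1 each with at least 10 counts in every library and after thinning. Reversing genes numbered 2 with DESeq2, 11 without a filter, and 1 each with library totals only, at least 10 counts in every library, thinning and robust dispersion, an alternative chosen after seeing the data. The cause of these changes was not tested, except that fewer libraries or genes enter by construction. Of the calls 12 of 17 were positive (70.6%), 9 of 16 (56.2%) with library totals only, 55 of 110 without a filter, 7 of 14 with at least 10 counts in every library and 6 of 12 after thinning. Leaving out 1 library gave 28.6 to 100.0%, with fewer positive than negative calls in 5 of 12 fits. With a replicate block 13 genes passed, all among the 17. Same-numbered libraries of different groups correlated at -0.20 to 0.23, with 5 of 18 pairs over 0.1, so the numbers were not taken to pair them.

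As a difference of differences in CPM rather than a log2 ratio, 9 converging genes had the other sign, at -170.5 for Iigp1, 124 for H2-K1, -17.8 for Gbp9, 60.8 for H2-Q4, 18 for Fst, -37.1 for Gm4841, -1.07 for Cmpk2, -0.567 for Cd274 and -2.01 for Sgk2. Additive genes numbered 815 with a limit of 0.3 and 1469 with a limit of 1.0. Depth limits genes with few counts without IFNγ.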

Other observations

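Further lists of interferon-stimulated genes held few interactions. Of 38 antiviral genes tested 34 were induced, and Cmpk2 passed the adjusted threshold by edgeR. At an unadjusted p under 0.05, 4 had an interaction (10.5%), against 5.43% of all genes tested and 20.2% of induced genes. The median interaction over the 35 with a readable ratio was 0.043 on the log2 scale. It was 0.014 over all genes with a readable ratio and 0.043 over the induced ones. The Ifi200 family, DNA sensors and their relatives, was higher in Sin3Bsg1 for 6 of 10 genes without IFNγ and 7 of 10 with it, where 7.89% and 8.62% of all genes tested were. Of the 10, 3 had no readable ratio and entered the test only through their other groups. The count with IFNγ draws on these too, so it tests nothing about the family. The members Ifi203 (0.62 and 0.47) and Ifi211 (0.25 and 0.18) were additive. Mndal went from 0.81 to 0.43, an interaction of -0.38 that did not pass (edgeR adjusted p = 0.644). Of 8 neutrophil and myeloid chemokines 0 had an interaction by edgeR at either p. The fitted value was negative for 7 of the 7 with a readable ratio, with a median of -0.37. Among all genes with a readable ratio it was negative for 6711 of 14742, and among induced ones for 184 of 416. Whether the 7 differ from these was not tested.

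Of 7 enzymes of tryptophan, arginine and nitric oxide metabolism tested, 0 passed the interaction test by edgeR. An unadjusted p under 0.05 was found for 1, Wars (14.3%, against 5.43% of all genes tested). Wars and Ido1 were named after their values were seen. Wars, the tryptophanyl-tRNA synthetase, was at 89.8, 88.0 and 89.7 CPM in sgCtrL and 93.5, 93.1 and 85.9 CPM in Sin3Bsg1 without IFNγ, and at 744, 651 and 638 CPM and 896, 894 and 895 CPM with it. Its groups overlapped without IFNγ and not with it, and its interaction of 0.38 did not pass with edgeR (adjusted p = 0.138), while DESeq2 called it. Ido1, which degrades tryptophan, was at 0 to 0.228 CPM without IFNγ and at 69.4, 76.0 and 74.3 CPM in sgCtrL and 44.1, 42.9 and 47.0 CPM in Sin3Bsg1 with it, a log2 difference of -0.71 (edgeR adjusted p = 7.56e-05), and its interaction had a 95% interval from -3.74 to 0.28.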
